A study of Bos taurus with 3 samples.

Results

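Retinoids, the active forms of vitamin A, reach a cell as retinol carried in plasma by RBP4, and the membrane receptor STRA6 takes retinol up from RBP4. Inside the cell, dehydrogenases oxidize retinol to retinaldehyde, ALDH1A1 oxidizes retinaldehyde to retinoic acid, and the small proteins CRABP1 and CRABP2 bind retinoic acid. Retinoic acid acts in the nucleus on the receptors RARA, RARB and RARG, which pair with RXRA or a related partner on DNA. In the fetal ovary the pathway is known above all for its part in the entry of germ cells into meiosis.

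The genes examined were those 9 (ALDH1A1, CRABP1, CRABP2, RBP4, STRA6, RARA, RARB, RARG and RXRA), read from every probe set whose only gene symbol on the platform was one of them. Of the 9, 7 had such a probe set, among 9155 genes measured in the series, and RARB and RARG were not analysed here. STRA6 and RARA had 2 probe sets each, and the probe set with the highest mean over the arrays stood for the gene.

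RNA from 3 cultures was hybridized to bovine genome arrays, 1 array for each culture, as log2 values. GREL (Gonadal Ridge Epithelial-Like) cells are polygonal cells grown from collagenase-dispersed fetal ovaries, and 2 clonally enriched isolates were measured, labelled as 130 days of gestation (the study's methods give a slightly younger age for 1 of the fetuses). They were compared with fibroblastic cells, the adult cells below, grown from the medullar stroma of the ovary of 1 adult animal. (A line of the deposited design text places both cell types in fetal ovaries, and the sample labels, which name an adult, were followed.) All 3 cultures were grown in the same serum-containing medium with no further treatment named, and were unmodified *Bos taurus* cells. The adult tissue was dispersed with a higher concentration of collagenase, and clonal enrichment is stated for the GREL cells only. With 1 adult culture, cell type, developmental age, animal, tissue region and preparation cannot be told apart. In a bulk culture fewer cells of a type and less RNA per cell cannot be told apart either. Every p-value below rests on the spread between the 2 isolates, with 1 residual degree of freedom. In limma, the main fit, that spread is drawn towards the spread over all probe sets. No p-value measures the spread between adult cultures.

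The labelled cell types were checked against markers. KRT19, a keratin of simple epithelia, read 7.1 on the log2 scale in the adult cells, 11.3 in GREL isolate 1 and 11.6 in isolate 2. The platelet-derived growth factor receptor PDGFRA, which marks stromal cells, read 8.3 in the adult cells and 6.1 and 5.5 in the isolates. Of 13 epithelial markers measured 5 were over 3-fold higher in both isolates, and of 14 stromal markers 3 were over 3-fold lower. By any amount 9 epithelial markers were higher in both isolates and 2 were lower in both. KRT7, KRT19, PKP2 and LSR are in the study's own list of genes over 3-fold higher, drawn from these same arrays. Their passing was therefore fixed beforehand and is no separate check of the labels. DCN, a stromal proteoglycan, still read 10.8 and 10.1 in the isolates against 11.4. The adult cells in turn read 10.4 for the keratin KRT18, against 11.4 and 11.8 in the isolates. CLDN1, also on the epithelial list, read 9.1 in the adult cells, against 8.5 and 6.9. The mean log2 value over the stromal list was 8.58 in the fibroblasts, 7.31 in isolate 1 and 6.74 in isolate 2. Over the epithelial list it was 3.89, 5.55 and 5.08 in the same order. Of 12 granulosa cell markers none was over 3-fold different, and 3 lay above the background level defined below on all 3 arrays. FST, which binds activin, read 9.6 in the adult cells, against 8.6 and 8.8 in the isolates. The inhibin subunit INHBA read 6.4 against 7.3 and 6.5, and the transcription factor GATA4 6.1 against 6.7 and 6.5. FOXL2 and CYP19A1 stayed at 2.0 or lower. In tissue sections the study reports FOXL2 and SF1 (the product of NR5A1) as protein in GREL cells. As RNA in these cultures, FOXL2 read 1.8 in the adult cells, against 1.9 and 2.0 in the isolates, and NR5A1 5.6 against 4.4 and 4.3. Of 9 endothelial markers none lay above the level on all 3 arrays and 2 were over 3-fold lower in both isolates. These were ENG, at 5.6 against 3.0 and 2.6, and EMCN, at 4.7 against 3.1 and 2.9 and below the level on every array. By any amount 3 endothelial markers were lower in both isolates and 1 was higher, CLDN5 at 1.6 against 2.2 and 2.1. PECAM1 read 1.8 against 1.6 and 2.1, and only ENG, in the adult cells, lay above the level on any array. Of 6 germ cell markers 1 was over 3-fold lower, the receptor KIT at 5.7 against 1.5 and 2.7. The other germ cell markers lay below the level on every array. By any amount 3 of the 6 were lower in both isolates and 1 was higher, SYCP3 at 2.2 against 2.4 and 2.6. The 8 blood cell markers lay below the level on every array, and 5 of 7 smooth muscle and 3 of 4 mesothelial markers lay above it on all 3, with none over 3-fold different. How far the mix of cell types moved the retinoid genes was not tested.

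The values come without detection calls, so a background level was set on each array at the 90th percentile of 58 genes of other organs. It stood at 5.41 on the adult array, 4.55 on that of isolate 1 and 4.39 on that of isolate 2. Of the 7 retinoid genes, 3 (ALDH1A1, RBP4 and STRA6) lay above it on all 3 arrays. RARA lay above it in both isolates only, CRABP2 in isolate 1 only, and CRABP1 and RXRA on no array. RARA itself read 5.3 in the adult cells, against 5.1 and 5.5 in the isolates, so its calls differ because the level is higher on the adult array. The medians over all probe sets were 2.9, 3.0 and 2.9 in the same order. Calls above or below the level therefore do not compare exactly across arrays. At the 95th percentile, which was 6.49, 6.41 and 6.89 in the order given, none of the 7 lay above on all 3 arrays. The size of a difference is therefore least certain for CRABP1, CRABP2 and RXRA.

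CRABP2 was the one member more than 3-fold higher in both GREL isolates, and STRA6 was higher in both, by more than 3-fold in isolate 1 only. ALDH1A1 was lower in both isolates, by more than 3-fold in isolate 2 only. RBP4 and RXRA were lower by less than 2-fold, CRABP1 was above the fibroblast value mainly in isolate 1, and RARA lay on either side of it. None of these differences passed limma (an adjusted p under 0.05 over all 24016 probe sets).

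**Figure D1:**
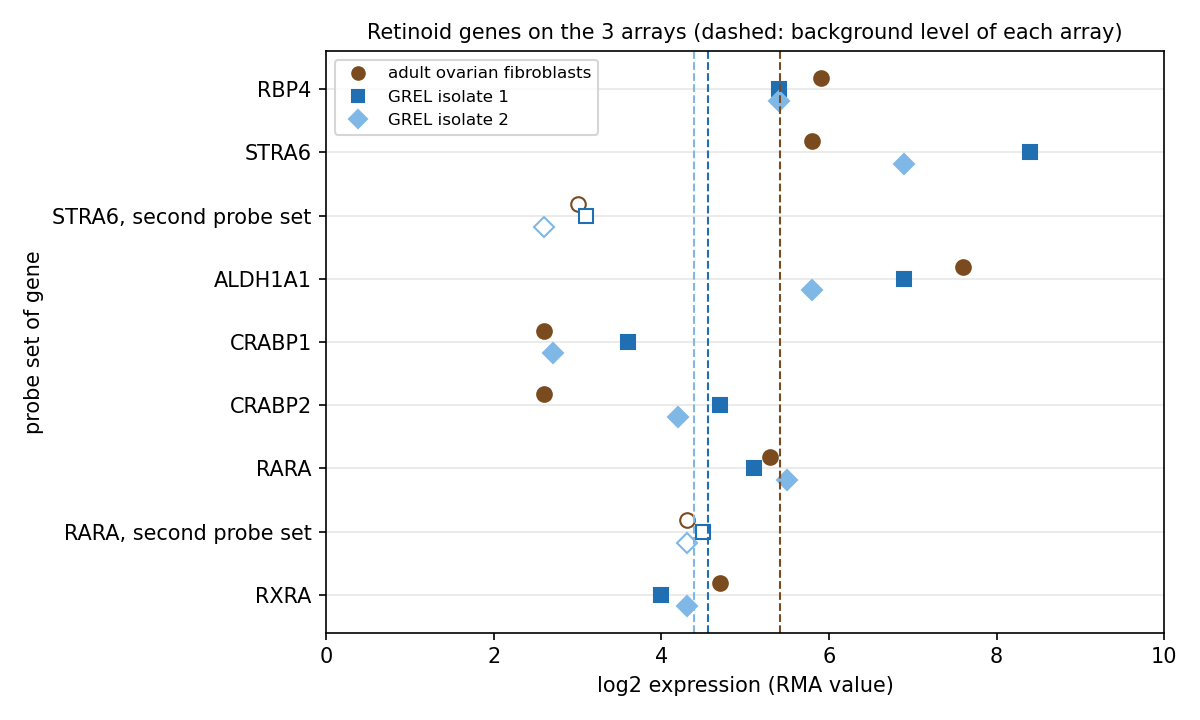
Log2 expression (horizontal axis, RMA values) of each probe set of the 7 retinoid genes (vertical axis) on 1 array per culture, with circles for the adult ovarian fibroblasts, squares for GREL isolate 1 and diamonds for GREL isolate 2. Open symbols are the dimmer probe sets of STRA6 and RARA, and each dashed line is the background level of the array of that colour. STRA6 spans 5.8 to 8.4 at its brighter probe set and 2.6 to 3.1 at its dimmer one.

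The genes of retinol delivery and uptake lay on opposite sides of the fibroblast values. STRA6 had a log2 value of 5.8 in the adult cells, 8.4 in isolate 1 and 6.9 in isolate 2. That is 6.06-fold higher in isolate 1 and 2.14-fold higher in isolate 2, a mean log2 difference of 1.85 with a standard error of 1.04 (limma, adjusted p = 0.441). Both isolates lay above the fibroblasts, but they also lay 1.5 apart from each other, and a gap that wide or wider was found in 0.71% of the 9155 genes. The dimmer probe set of STRA6 gave no such difference, at 3.0 in the adult cells, against 3.1 and 2.6 in the isolates, and the mean over both probe sets put the log2 difference at 0.85. On no array did the dimmer set reach the background level.

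RBP4, the plasma carrier of retinol, read 5.9 in the adult cells and 5.4 in each isolate. The log2 difference was -0.5, or 1.41-fold lower (standard error 0.03, limma adjusted p = 0.182). Because the isolates round to the same value, their measured spread is 0 and the standard error is too small. A difference downwards at least as large in both isolates was found in 13.3% of the genes. With a robust prior limma gave RBP4 an adjusted p = 0.0452, and it was then the one member called, while the adjusted p in the other fits ranged from 0.182 to 0.25.

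ALDH1A1, the enzyme of retinoic acid synthesis on the list, read 7.6 in the adult cells, 6.9 in isolate 1 and 5.8 in isolate 2. It was thus 1.62-fold lower in isolate 1 and 3.48-fold lower in isolate 2, a mean log2 difference of -1.25 with a standard error of 0.77 (limma, adjusted p = 0.469). The order of the 3 cultures was fibroblasts, isolate 1 and isolate 2, and the isolates lay 1.1 apart, a gap reached by 2.3% of the genes. ALDH1A2, which catalyses the same step, was not analysed here, so these values do not describe that step as a whole.

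Of the cellular retinoic acid binding proteins, CRABP2 read 2.6 in the adult cells, against 4.7 and 4.2 in the isolates. It was 4.29-fold higher in isolate 1 and 3.03-fold higher in isolate 2, a mean log2 difference of 1.85 with a standard error of 0.35 (limma, adjusted p = 0.258). Since the adult cells and isolate 2 lay below their background levels, these folds are rough. The difference was more than 3 times the gap of 0.5 between the isolates. In isolate 2 the fold lies so near 3 that the rounding of the values to steps of 0.1 could place it on either side. CRABP1 read 2.6 in the adult cells, 3.6 in isolate 1 and 2.7 in isolate 2, a mean log2 difference of 0.55 with a standard error of 0.63 (limma, adjusted p = 0.683). Isolate 2 therefore lay within 0.1 of the fibroblasts, and the gap of 0.9 between the isolates was larger than the mean difference.

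Of the receptors measured, RARA lay near the fibroblast value, and RXRA, below the background level on every array, was lower in both isolates by less than 2-fold. RARA read 5.3 in the adult cells, against 5.1 and 5.5 in the isolates, a mean log2 difference of 0.0 (standard error 0.28). Its dimmer probe set read 4.3 in the adult cells, against 4.5 and 4.3 in the isolates. RXRA read 4.7 in the adult cells, against 4.0 and 4.3 in the isolates. The mean log2 difference was -0.55 with a standard error of 0.21 (limma, adjusted p = 0.353). For RXRA, 16.5% of the genes had a difference downwards at least as large in both isolates.

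**Figure D2:**
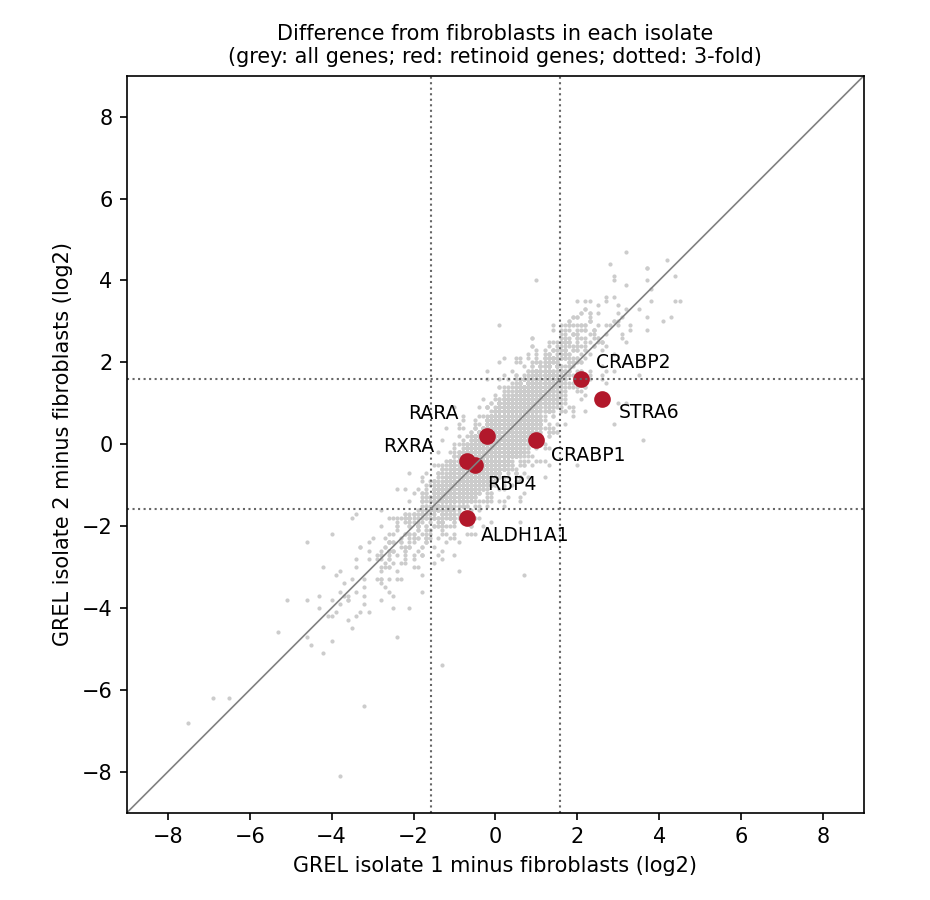
Log2 difference from the fibroblasts in GREL isolate 1 (horizontal axis) and GREL isolate 2 (vertical axis) for 9155 genes (grey) and the 7 retinoid genes (red), with dotted lines at 3-fold and a line of equal differences. CRABP2 lies past the lines in both directions, at 2.1 in isolate 1 and only just past in isolate 2, at 1.6. STRA6, ALDH1A1 and CRABP1 lie below the line of equal differences by 1.5, 1.1 and 0.9.

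Over the 7 genes, 1 was over 3-fold higher in both isolates, against 2.38% of all genes, and 0 were over 3-fold lower, against 2.38%. By any amount, 3 were higher in both isolates (41.6% of all genes) and 3 were lower in both (33.5%). The median log2 difference was 0.0, and over all genes it was 0.05. Limma called 0 members higher and 0 lower, as it called 0% of the probe sets in either direction. At an unadjusted p under 0.05, 0 members were higher and 1 was lower (RBP4), beside 2354 probe sets higher and 2666 lower in all. The one-way analysis of variance named in the methods called 0 and 0 of 20503 probe sets whose isolates differ, with 186 and 208 unadjusted.

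The 2 isolates themselves differed in these genes. Their median gap was 0.5 over the 7 genes and 0.2 over all genes, of which 5% or fewer exceeded 0.8. The 3 wide gaps, in STRA6, ALDH1A1 and CRABP1, were all towards higher values in isolate 1. RARA and RXRA were 0.4 and 0.3 higher in isolate 2.

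Genes of the rest of the pathway were described from 5 lists, of which 55 of 96 genes had a named probe set. Of the 55, 1 was over 3-fold higher in both isolates and 4 were over 3-fold lower, against 2.38% of all genes in each direction. By any amount 12 were higher in both and 29 were lower in both, against 41.6% and 33.5% of all genes. The median log2 difference was -0.3. Limma called none of them, and at an unadjusted p under 0.05 there were 5 higher and 9 lower, against 9.8% and 11.1% of all probe sets.

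Of 8 genes of transport and storage, 1 was over 3-fold lower in both isolates. It was FABP5, a fatty acid binding protein that also binds retinoic acid, at 10.1 in the adult cells, against 8.5 and 8.0 in the isolates. Its log2 difference was -1.85 (standard error 0.35, limma adjusted p = 0.258), and it lay above the background level on all 3 arrays. A second probe set of FABP5 read 8.8, 6.2 and 5.4. In both isolates FABP5 thus lay below the fibroblast value, and CRABP2, above the background level in isolate 1 only, lay above it. LPL, a lipase that also frees retinol from its esters in lipoproteins, read 4.0 in the adult cells, against 6.2 and 5.4 in the isolates. SCARB1, a lipoprotein and carotenoid receptor, read 7.3 against 6.7 and 6.2. CD36, a fatty acid transporter, read 1.3 against 1.1 and 2.9, far below the background level.

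Of 27 genes listed for retinoid synthesis 19 were measured, ALDH1A2 not among them, and 1 was over 3-fold lower, the carotenoid-cleaving enzyme BCO2. BCO2 read 4.9 in the adult cells, against 2.8 and 3.1 in the isolates, below the background level throughout. Its dimmer probe sets differed by less than 2-fold, at 2.1 against 1.8 and 1.9, and at 1.6 against 1.1 and 1.2. DHRS9, a dehydrogenase that oxidizes retinol, read 3.9 against 2.1 and 2.5. AKR1B1, an aldo-keto reductase that can reduce retinaldehyde among many aldehydes, read 6.3 in the adult cells, against 7.8 and 7.9 in the isolates, above the background level on all 3 arrays. Its log2 difference was 1.55 (standard error 0.07, limma adjusted p = 0.182). The retinol dehydrogenase RDH14 read 4.8 against 5.6 and 5.2. Over the list the median log2 difference was -0.15. Of 5 genes listed for breakdown 2 were measured, CYP2S1 at 2.2 against 2.4 and 2.1, and CYP4V2 at 6.1 against 6.1 and 5.3. A second probe set of CYP4V2, nearly as bright, went the other way, at 5.1 against 5.4 and 6.1. CYP2S1 lay below the background level on every array. The retinoic acid hydroxylases CYP26A1, CYP26B1 and CYP26C1 were not analysed here, so these values do not describe retinoid breakdown.

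Of 10 nuclear partners none was over 3-fold different, and the median log2 difference was -0.1. RXRB, a partner of the retinoic acid receptors like RXRA, read 4.5 in the adult cells, against 4.6 and 4.9 in the isolates. PPARD, another receptor that pairs with RXRA, read 4.5 against 4.1 in each isolate. The corepressor subunits TBL1X and HDAC3 read 7.1 against 6.7 and 6.6, and 6.4 against 6.6 and 6.8. These receptors and cofactors, like RARA and RXRA, stayed within 2-fold of the fibroblast value in both isolates.

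Of 17 genes known to respond to retinoic acid, 1 was over 3-fold higher and 2 were over 3-fold lower in both isolates, with a median log2 difference of -0.35. HOXA5, a homeobox gene, read 2.2 in the adult cells, against 5.4 and 6.1 in the isolates, a mean log2 difference of 3.55 (standard error 0.49, limma adjusted p = 0.202). Each isolate exceeded its background level, but the adult cells were far below theirs, so the size of the difference is rough. Its second probe set read 2.0 in the adult cells, against 2.0 and 2.3 in the isolates. HOXA4, its neighbour in the cluster, read 1.7 against 2.8 and 3.6, below the background level throughout.

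TGM2, a transglutaminase, read 5.6 in the adult cells, against 2.5 and 3.2 in the isolates, a mean log2 difference of -2.75 (standard error 0.49, limma adjusted p = 0.241). The orphan nuclear receptor NR2F1 read 7.1 against 5.3 and 5.2, and NR2F2, also counted among the stromal markers, 7.7 against 6.5 and 6.0. RARRES2, the secreted adipokine chemerin, read 8.6 in the adult cells and 7.4 in each isolate. PLAT, the tissue plasminogen activator, read 6.7 against 7.9 and 7.8. NR2F1, NR2F2, RARRES2 and PLAT lay above the background level on all 3 arrays. TGM2 lay above it in the fibroblasts only, so the size of its difference is rough as well. Responsive genes thus lay on both sides of the fibroblast values, though more lay below. By any amount 5 of the 17 were higher in both isolates and 10 were lower in both, against 41.6% and 33.5% of all genes.

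**Figure D3:**
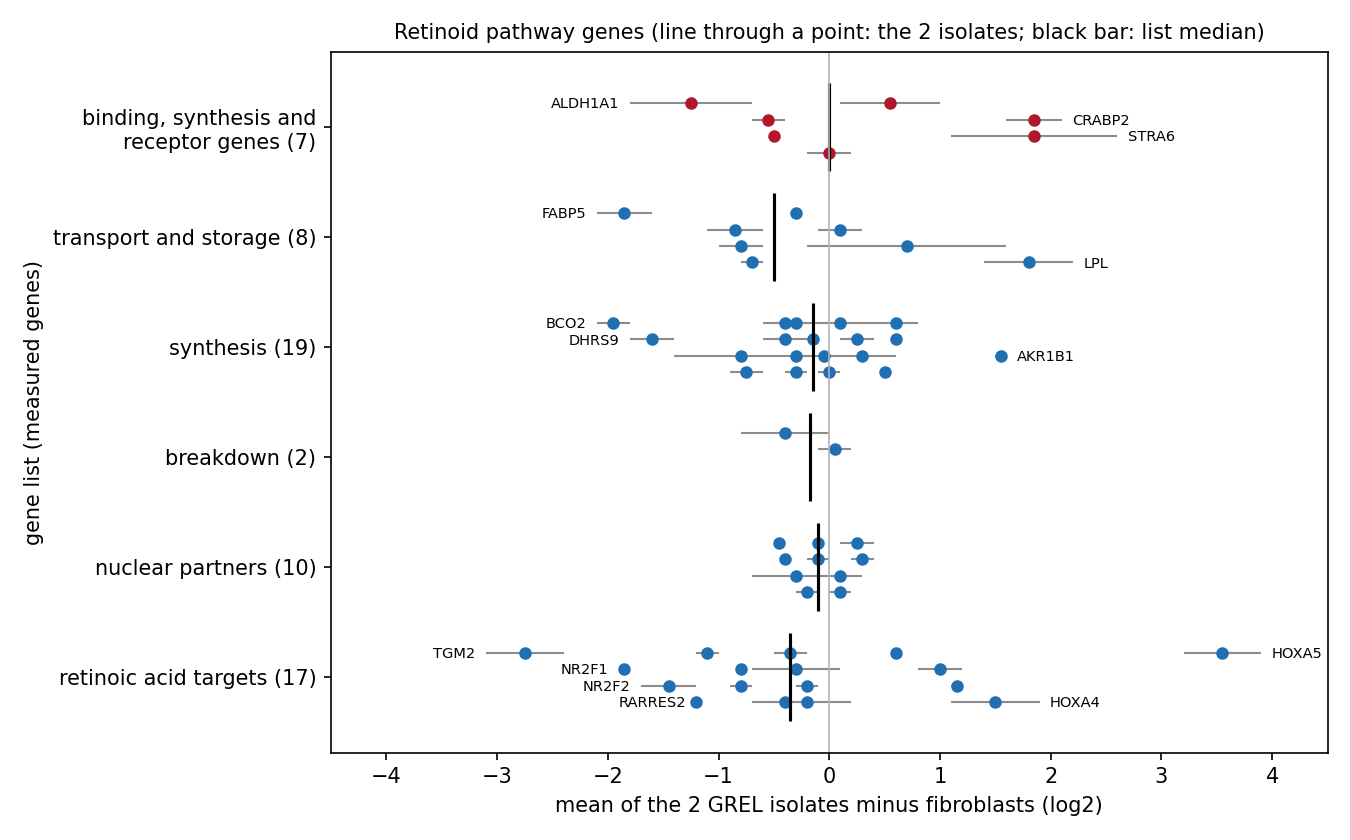
Points give, on the log2 scale of the horizontal axis, how far the average of the isolates lay from the fibroblasts for the 7 retinoid genes (red) and the measured genes of 5 other retinoid lists (blue), with gene numbers in brackets. The grey line through a point joins the isolates and the black bar is the list median, which runs from -0.5 for transport and storage to 0.0 for the retinoid genes of the rule.

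By the Euclidean distance over the 3 arrays between values centred on each gene's own mean, the genes whose pattern was most like that of CRABP2, among 9154 others, were RAB3IP, at a distance of 0.0, and NUAK2 and B4GALT6, both at 0.082. RAB3IP read 2.1 in the adult cells, against 4.2 and 3.7 in the isolates. Likeness over 3 arrays is a weak measure, since values in steps of 0.1 leave few distinct patterns.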

How the data were processed

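The authors hybridized total RNA from 3 cultures to Affymetrix GeneChip Bovine Genome Arrays, subtracted background with RMA, quantile normalized and deposited log2 values (Partek 6.5 in the submitters' processing notes), which are rounded to steps of 0.1. The 112 array controls among the 24128 probe sets were not used. Symbols came from the platform annotation, with 1 symbol for 13292 probe sets, several for 86 and none for 10638, and 0 value columns were without a sample. Coordinates and sequences are left out (the build is not given in the sources used here).

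GREL cells were compared with fibroblasts by lmFit and eBayes of limma 3.58.1 (R 4.3.3) on all 3 arrays, with Benjamini-Hochberg adjustment over 24016 probe sets. In 3513 probe sets the isolates have the same rounded value. Tables and figures used Python 3.11.15, pandas 2.3.3, numpy 2.4.6 and matplotlib 3.10.9. The number of arrays limits the precision.

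The members and lists were chosen with earlier results of these data known. Named besides the members were list genes over 3-fold different in both isolates, the 2 highest and 2 lowest of each list, those above background on all 3 arrays and over 1 different in both isolates, and defining markers of the labelled cell types. Alternatives were the methods' analysis of variance, a prior of limma that is robust or follows intensity, removal of dim probe sets, a second quantile normalization, median centring, the mean over probe sets, 2-fold and 4-fold thresholds, other background levels, and leaving out either isolate.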

Additional observations from a re-analysis of the deposited data

How the results depend on the processing

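The differences of the 7 retinoid genes were recomputed under the alternatives, 60 values in all. Many of these could not move past the limits set. Leaving out an isolate always shifts the mean by no more than the SD between the isolates. Refits of the same values keep the difference, as does the mean over probe sets for a gene with 1 probe set. RARA, at 0.0 over both isolates, read 0.2 without isolate 1 and -0.2 without isolate 2. No other member changed sign, and 59 of the 60 values kept their side of the threshold or moved by no more than that SD. The exception was RBP4 with a robust prior in limma, with which members called lower went from 0 to 1 and all probe sets called from 0 to 571 higher and 618 lower. The adjusted p of every other member under every fit, and of RBP4 under the other fits, was at least 0.182. Over 2-fold 2 members were higher in both isolates and over 4-fold 0 were, against 1 over 3-fold. Leaving out an isolate gave 1 to 2 members over 3-fold higher (2 without isolate 2, which adds STRA6) and 0 to 1 lower (1 without isolate 1, ALDH1A1), and these values carry no test, since no residual degree of freedom is left. Above the background level on all 3 arrays were 3 members, 0 at the 95th percentile and 5 at the array median. The median over the members lay between -0.2 and 0.1 under the other scalings and without either isolate. The adult culture has 1 array, so leaving it out was not possible. No paired analysis was possible because the groups share fewer than 2 replicate numbers.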
